A study of Mus musculus with 4 samples.

Results

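The Hox genes of cultured mouse primary myoblasts were described from a table of 24445 genes, of which 39 had a symbol naming 1 of the 4 Hox clusters and a paralogue number. They comprised 11 Hoxa genes on chromosome 6, 10 Hoxb genes on chromosome 11, 9 Hoxc genes on chromosome 15 and 9 Hoxd genes on chromosome 2. The members were chosen by name only, and all 39 lay on the same chromosome in the GENCODE vM1 annotation of the same genome build, mm9. In that annotation 31 of them had 2 exons, the usual structure of a Hox gene. RNA of 4 libraries was sequenced, 2 from wild type (WT) and 2 from Tet2 KO C57BL/6 mice, in which exon 3 of Tet2 was deleted in the whole animal. Satellite cells, the stem cells of muscle, were sorted from hindlimb muscle by the absence of CD45, CD11b, CD31 and Sca1 and the presence of CD34 and integrin a7, and were cultured for at least 3 days on collagen, in a proliferation medium the labels call T cell medium, until they were MyoD+ myoblasts. Unless stated otherwise in the methods, the mice were males of 8 to 10 weeks. The labels give neither group a treatment with an agent.

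Expression was measured as FPKM (fragments mapped to a gene, scaled for transcript length and library size, so that levels of different genes can be set side by side), with 1 pooled value per gene and group. No value of a single library was used, so no SD, n or p-value stands beside any level, and none of the differences could be compared with the spread between libraries. Depth was unknown. For each gene the log2 ratio was taken as log2((Tet2 KO FPKM + 1)/(WT FPKM + 1)), which understates the difference of genes with low values. Counts over genes used those with a mean of at least 1 FPKM in the 2 groups, 11692 in the table, whose median log2 ratio was -0.0044. In bulk RNA, fewer cells of a type and less RNA per cell cannot be told apart.

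Hox genes encode transcription factors with a homeodomain that give cells their position along the head to tail axis and, in the limb, from shoulder or hip to digits. Genes at the same place in different clusters are paralogues and carry the same number. Within a cluster the order of the genes on the chromosome follows the order in which they are used along the axis, low numbers at the anterior end and high numbers at the posterior end, and cells of the adult body often keep the set they acquired in the embryo. Hox proteins bind DNA with the cofactors Pbx, Meis and Pknox, Polycomb complexes keep unused Hox genes silent, and Trithorax proteins such as Kmt2a keep used ones active.

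The myoblasts showed a cluster-specific set whose summed level, though not its number of genes, was mostly posterior. In all, 16 of the 39 genes had at least 1 FPKM in either group, 7 of the Hoxa cluster, 7 of the Hoxc cluster, 2 of the Hoxd cluster and 0 of the Hoxb cluster. Hoxa9, Hoxa10 and Hoxa11 were the 3 highest, and together they made up 46.3% of the summed Hox FPKM in WT and 52.4% in Tet2 KO. The same 16 genes were the 16 highest in both groups, and the same 7 genes were the 7 highest. Across the 39 genes, which are not independent replicates, the levels of the 2 groups had a Spearman correlation of 0.986. The summed level was 90.1 FPKM in WT and 92.6 FPKM in Tet2 KO.

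**Figure D1:**
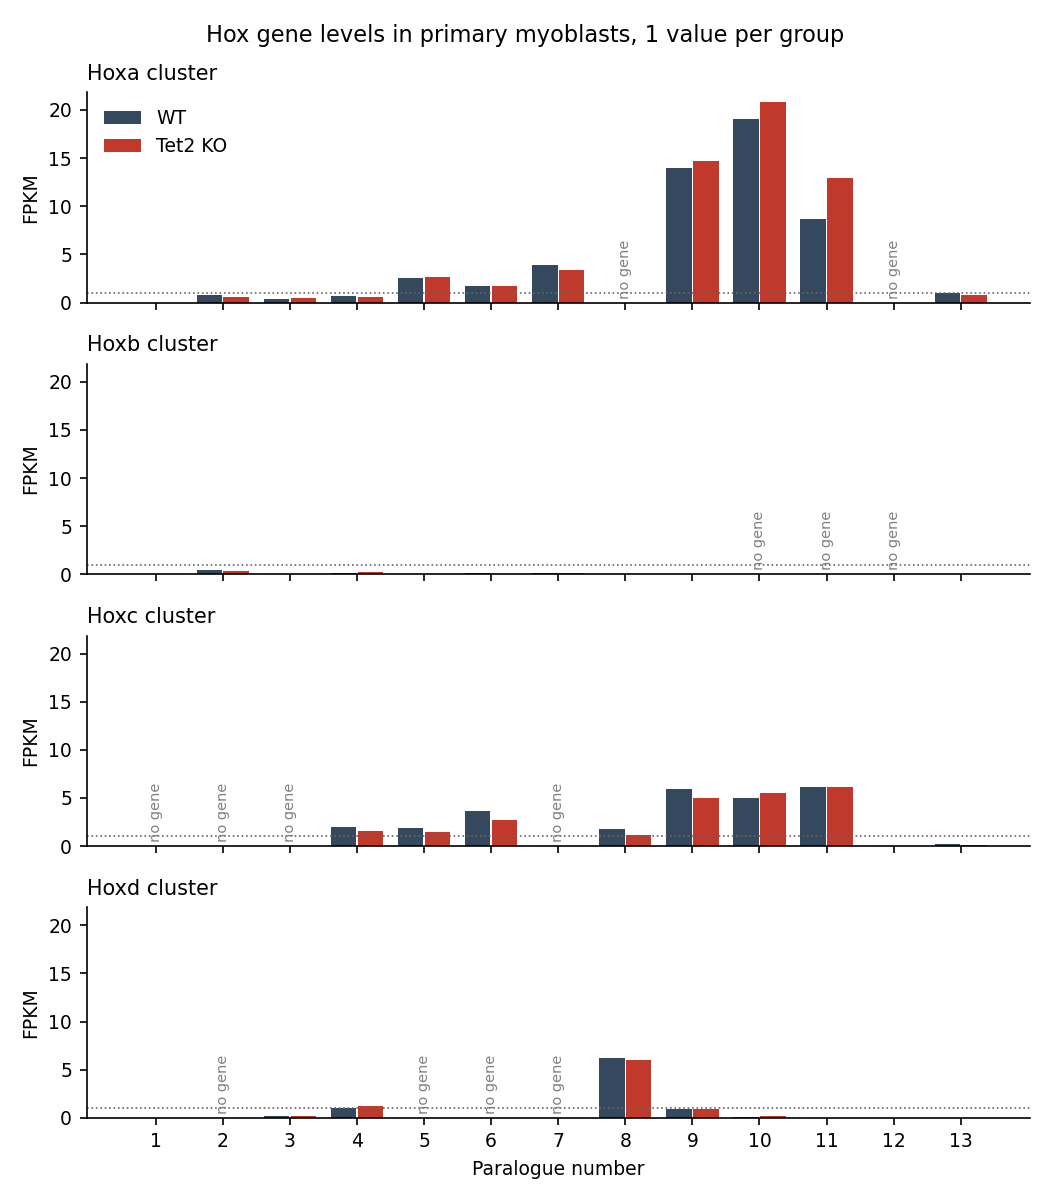
FPKM (vertical axes) of each Hox gene by paralogue number (horizontal axis) in WT (dark bars) and Tet2 KO (red bars), 1 panel per cluster; bars are single pooled values with no error, the dotted line is at 1 FPKM, and numbers with no gene in a cluster are marked; 38 of the 39 genes are drawn. The highest bars are those of Hoxa9, Hoxa10 and Hoxa11, the Hoxb panel stays under 1 FPKM, and the bars of the 2 groups follow the same profile.

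By paralogue number, levels were concentrated in groups 9 to 11, which held 66.4% of the summed Hox FPKM in WT and 71.5% in Tet2 KO. The central groups 4 to 8 held 28.5% in WT and 24.7% in Tet2 KO. The anterior groups 1 to 3 held 3.68% in WT and 2.65% in Tet2 KO. At the far posterior end, groups 12 and 13 had no gene at 1 FPKM. By number of genes the central groups led. In either group of mice, 9 of the 15 central genes reached 1 FPKM, against 6 of the 16 posterior genes of groups 9 to 13. By cluster, Hoxa genes held 60.0% of the sum in WT and 64.2% in Tet2 KO, Hoxc genes 29.4% and 25.6%, Hoxd genes 9.49% and 9.31%, and Hoxb genes 1.07% and 0.911%.

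In the Hoxa cluster, which lies on the minus strand of chromosome 6, levels were lowest from Hoxa2 to Hoxa4, were higher from Hoxa5 to a peak at Hoxa10, and dropped at Hoxa13. Hoxa10, a regulator of limb and uterine patterning, had 19.1 FPKM in WT and 20.8 FPKM in Tet2 KO, the highest Hox level in both groups and above 80.7% of all genes of the table in WT. Its locus spans 52181196 to 52190853. Hoxa9, which acts in limb and blood development, had 13.9 FPKM in WT and 14.7 FPKM in Tet2 KO. Hoxa11, needed for the forearm and lower leg, had 8.68 FPKM in WT and 12.96 FPKM in Tet2 KO. All 3 were listed higher in Tet2 KO than in WT. Hoxa13, a gene of the hand and foot and the next one along the chromosome, had 0.968 FPKM in WT and 0.808 FPKM in Tet2 KO. The step from Hoxa11 down to Hoxa13 was 8.97-fold in WT and 16.04-fold in Tet2 KO, over 14584 bases between their annotated transcription starts.

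The central Hoxa genes were lower. Hoxa7 had 3.90 FPKM in WT and 3.35 FPKM in Tet2 KO, and the step from Hoxa7 up to Hoxa9 was 3.57-fold in WT and 4.39-fold in Tet2 KO. Hoxa5, known from lung and axial patterning, had 2.55 FPKM in WT and 2.64 FPKM in Tet2 KO, and Hoxa6 had 1.71 and 1.67 FPKM. The groups were close for both genes, which shared 1 locus entry of 47924 bases with Hoxa3, Hoxa4 and 2 antisense genes, so reads in their overlaps could be divided between them in more than 1 way. Hoxa4, Hoxa3 and Hoxa2 stayed between 0.359 and 0.735 FPKM in both groups.

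In the Hoxc cluster, on the plus strand from 102751562 to 102867283 of chromosome 15, the 7 genes from Hoxc4 to Hoxc11 reached 1 FPKM. The highest were the posterior ones. Hoxc11, a gene of the hindlimb, had 6.11 FPKM in WT and 6.16 FPKM in Tet2 KO. Hoxc10, expressed in developing hindlimbs but not forelimbs, had 5.02 and 5.50 FPKM, and Hoxc9 had 5.87 FPKM in WT and 4.97 FPKM in Tet2 KO. The neighbours Hoxc9, Hoxc10 and Hoxc11 lay within 1.22-fold of each other from one gene to the next, in both groups. Beyond them came the sharpest step between 2 neighbouring Hox genes that were above 0 in both groups, from Hoxc11 to Hoxc12, 17670 bases apart, where Hoxc12 had 0.0550 FPKM in WT and 0.0281 FPKM in Tet2 KO. Levels this low fix the size of the step poorly, which was 111-fold in WT and 220-fold in Tet2 KO. Among the central genes, Hoxc6 had 3.61 FPKM in WT and 2.70 FPKM in Tet2 KO. Hoxc8 had 1.79 and 1.19 FPKM, Hoxc4 had 1.99 and 1.56 FPKM, and Hoxc5 had 1.85 and 1.45 FPKM. All 4 were listed lower in Tet2 KO. These genes act mainly in the trunk, where they pattern the thorax and neck.

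The Hoxd cluster, on the plus strand from 74506367 to 74603199 of chromosome 2, had 2 genes at 1 FPKM, Hoxd8 and, at a lower level, Hoxd4. Hoxd8 had 6.19 FPKM in WT and 6.04 FPKM in Tet2 KO. Its posterior neighbour Hoxd9 had 0.902 and 0.883 FPKM, and Hoxd10 after it had 0.116 and 0.173 FPKM. The steps were 6.86-fold from Hoxd8 to Hoxd9 and 7.81-fold from Hoxd9 to Hoxd10 in WT, and 6.84-fold and 5.10-fold in Tet2 KO. Hoxd11, Hoxd12 and Hoxd13, which pattern the forearm and digits, were at or under 0.0313 FPKM in both groups. On the anterior side, Hoxd4 had 1.04 FPKM in WT and 1.25 FPKM in Tet2 KO, and it shared its locus entry with Hoxd3, an antisense gene and the gene of miR-10b. The posterior part of the set thus differed by cluster, with genes 9 to 11 at 8.68 FPKM or more in both groups in Hoxa and at 4.97 FPKM or more in Hoxc, and with none of Hoxd9, Hoxd10 and Hoxd11 at 1 FPKM.

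The Hoxb cluster, on the plus strand from 96055675 to 96229567 of chromosome 11, was close to silent. Its highest gene, Hoxb2, had 0.463 FPKM in WT and 0.351 FPKM in Tet2 KO. Hoxb4, a gene of blood stem cells, had 0.132 FPKM in WT and 0.226 FPKM in Tet2 KO, and Hoxb7 had 0.113 and 0.168 FPKM. The other 7 Hoxb genes were at or under 0.0957 FPKM in both groups, and Hoxb8 and Hoxb13 were listed at 0 in Tet2 KO. The sum over the 10 genes was 0.964 FPKM in WT and 0.843 FPKM in Tet2 KO.

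**Figure D2:**
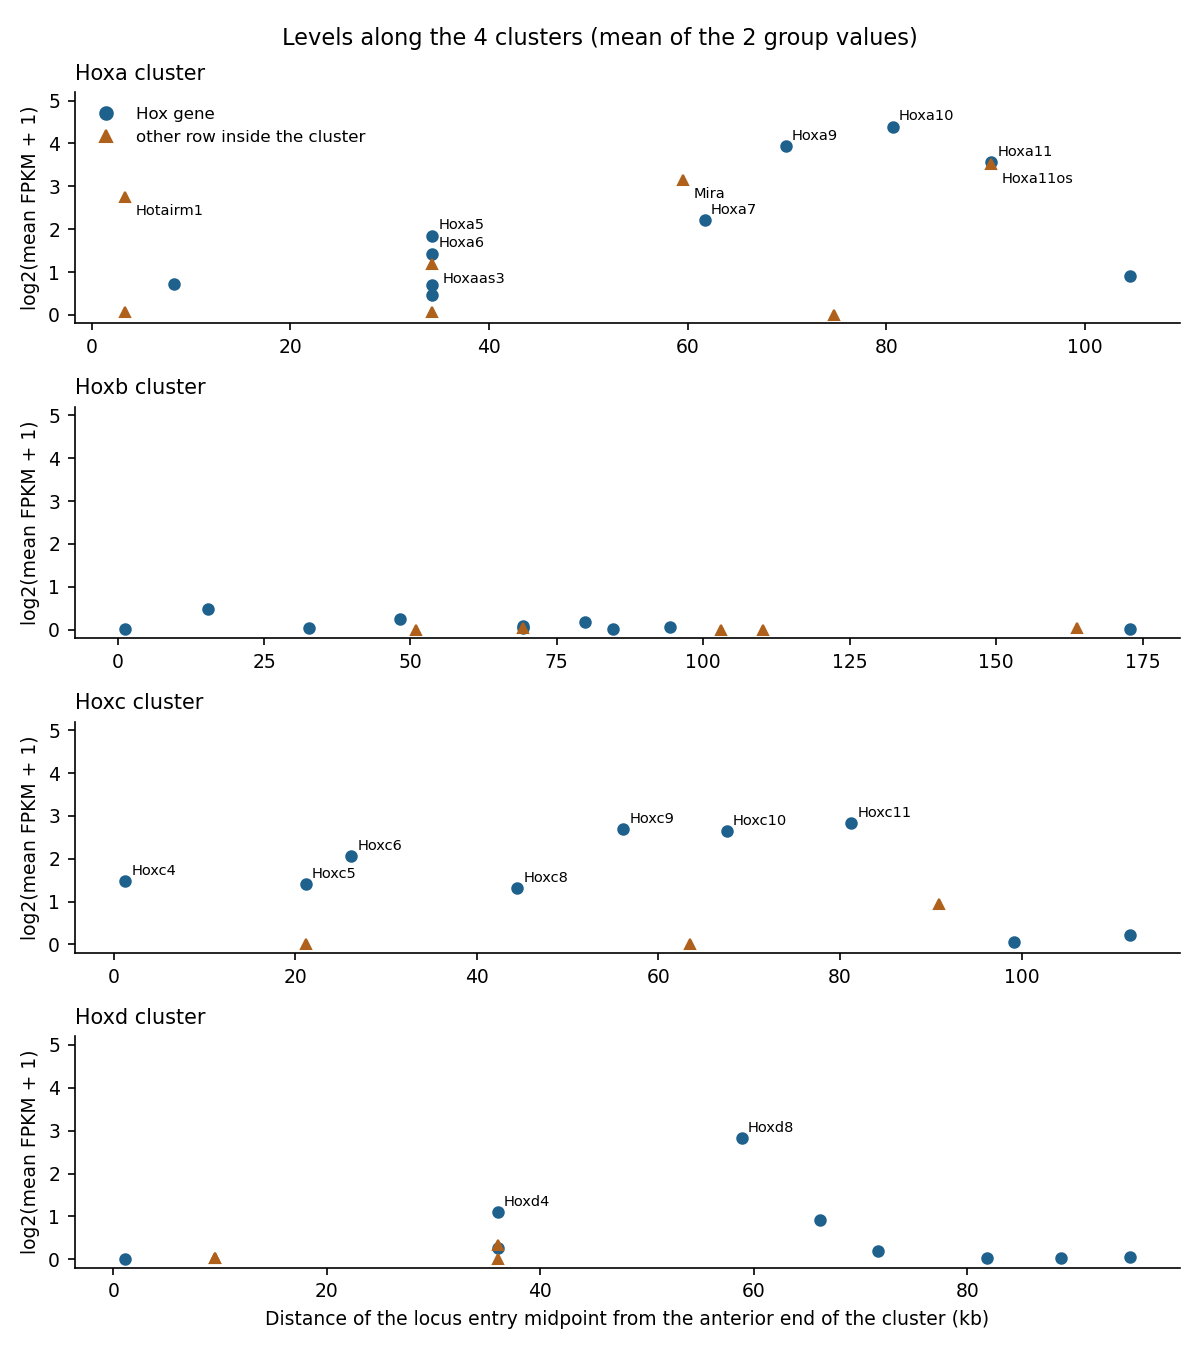
Level along each cluster: the horizontal axes give the distance in kb of the middle of each locus entry from the anterior end of the cluster, the vertical axes log2(mean FPKM of the 2 groups + 1); circles are Hox genes, triangles other rows of the table inside the cluster, and names are given from a mean of 1 FPKM. Hoxa and Hoxc are highest towards the posterior side and drop before their last genes, Hoxd is highest at Hoxd8, and genes that share a locus entry sit at the same distance.

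Promoter windows of 4 genes are given. Hoxa9 and Hoxa11 are posterior Hoxa genes at high level, both on the high side of the Hoxa steps given above. Hoxd8, at 6.19 FPKM in WT, and Hoxd10, at 0.116 FPKM, lie on either side of Hoxd9. Each window runs from 250 bases before to 50 bases after the annotated RefSeq start, 5′ to 3′ on the strand of the gene, in build GRCm38.p6. Capitals mark CG, the dinucleotide whose cytosine is methylated in mammals and is the substrate of Tet enzymes after methylation. The positions are chr6:52227321-52227620 for Hoxa9, chr6:52245761-52246060 for Hoxa11, chr2:74704365-74704664 for Hoxd8 and chr2:74691641-74691940 for Hoxd10, the Hoxa genes on the minus and the Hoxd genes on the plus strand.
Hoxa9: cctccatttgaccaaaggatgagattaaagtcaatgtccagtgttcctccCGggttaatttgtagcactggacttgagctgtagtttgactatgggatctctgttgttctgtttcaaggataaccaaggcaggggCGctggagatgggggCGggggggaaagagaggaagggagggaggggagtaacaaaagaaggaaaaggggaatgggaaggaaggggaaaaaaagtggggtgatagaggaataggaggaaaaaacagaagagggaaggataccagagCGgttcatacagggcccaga
Hoxa11: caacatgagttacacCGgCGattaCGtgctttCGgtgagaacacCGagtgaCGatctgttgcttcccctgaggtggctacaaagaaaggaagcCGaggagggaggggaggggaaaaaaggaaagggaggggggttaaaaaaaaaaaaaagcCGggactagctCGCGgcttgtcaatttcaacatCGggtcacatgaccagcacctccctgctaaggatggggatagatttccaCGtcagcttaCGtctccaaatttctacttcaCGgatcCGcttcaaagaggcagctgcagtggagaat
Hoxd8: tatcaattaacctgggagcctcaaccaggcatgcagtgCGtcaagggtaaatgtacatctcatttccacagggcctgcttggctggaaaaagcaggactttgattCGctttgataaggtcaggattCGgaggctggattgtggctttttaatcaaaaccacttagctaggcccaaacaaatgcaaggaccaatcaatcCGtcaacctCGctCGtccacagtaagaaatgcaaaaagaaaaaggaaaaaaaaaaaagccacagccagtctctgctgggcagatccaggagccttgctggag
Hoxd10: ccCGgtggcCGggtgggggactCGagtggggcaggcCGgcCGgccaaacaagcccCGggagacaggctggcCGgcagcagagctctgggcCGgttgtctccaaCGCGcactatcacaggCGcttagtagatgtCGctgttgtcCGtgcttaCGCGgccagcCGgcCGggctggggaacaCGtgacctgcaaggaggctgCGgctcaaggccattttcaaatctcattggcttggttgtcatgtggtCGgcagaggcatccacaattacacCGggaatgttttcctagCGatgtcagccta
The windows held 4 CG for Hoxa9, 15 for Hoxa11, 6 for Hoxd8 and 22 for Hoxd10, so of these 4 the gene near silence had the most. RefSeq windows were found for 22 of the 39 Hox genes, 24 windows in all. Their median was 14.5 CG, against 7 CG in all 32841 windows of the table. The 10 windows of genes with a mean of at least 1 FPKM had a median of 10.5 CG, from 4 to 29, and the 14 windows of the other genes a median of 20 CG, from 4 to 45, so the ranges overlapped. Hoxc5, Hoxc6, Hoxc8, Hoxc9, Hoxc10 and Hoxc11 had no window, so of the Hoxc genes at 1 FPKM only Hoxc4 entered these medians. Most Hoxb genes also had no window, and of that cluster only Hoxb1, Hoxb4 and Hoxb8 entered. Methylation itself was not analysed here. The letters CAGCTG, a form of the E box that MyoD binds and identical on both strands, occurred in 4 of the 24 Hox windows (16.7%), those of Hoxa3, Hoxa5, Hoxa6 and Hoxa11, and in 16.3% of all windows.

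Tet2 converts methylated cytosine in DNA to its oxidised forms, and the comparison of Tet2 KO with WT asked how myoblasts without it differ in their transcripts. None of the 16 Hox genes with a mean of at least 1 FPKM was past 2-fold in either direction, beside 2.08% of all 11692 such genes past 2-fold higher and 1.21% past 2-fold lower. At the pseudocount of 1 none was past 1.5-fold either, beside 3.72% higher and 2.89% lower. Without a pseudocount 0 were past 1.5-fold higher and 1 lower, beside 4.97% and 4.02% of all such genes. Of the 16 genes, 7 were higher and 9 lower in Tet2 KO, beside 48.8% of all 11692 genes higher. Among the 16 the highest log2 ratio was 0.53, for Hoxa11. Their median was -0.03, beside -0.0044 over all genes. Among the 7121 genes with a mean from 1 FPKM up to that of Hoxa10, 3.01% were past 2-fold higher and 1.29% lower, and 5.24% and 3.40% were past 1.5-fold. Over these 7121 genes, which span the whole range of levels of the 16 Hox genes, the central 95% of log2 ratios ran from -0.71 to 1.11. All 16 Hox genes lay inside. The other 23 Hox genes differed between groups by at most 0.160 FPKM.

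**Figure D3:**
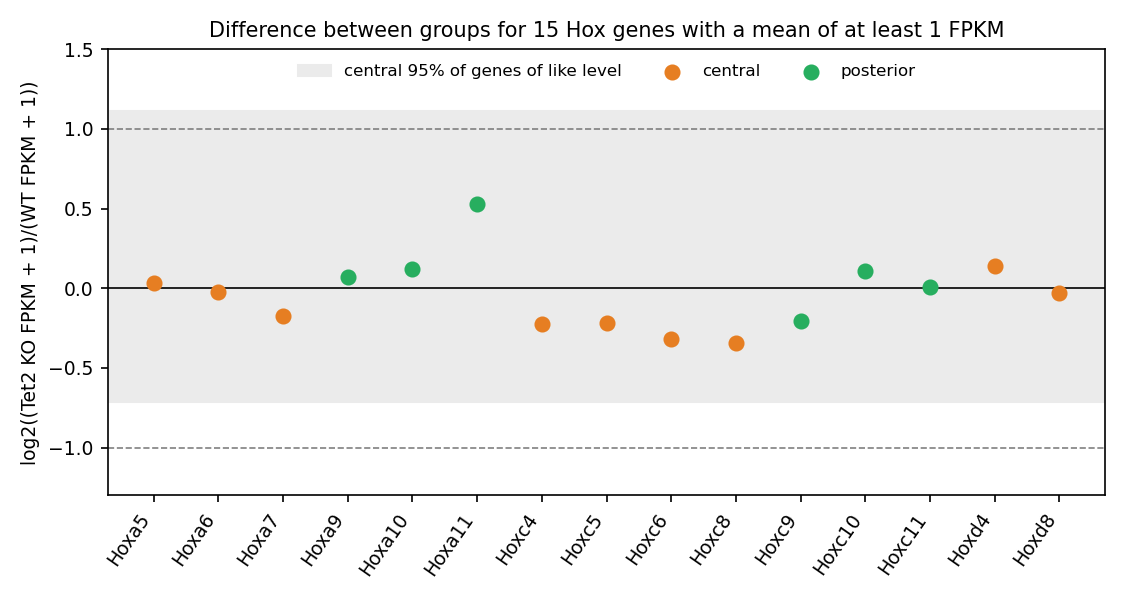
log2((Tet2 KO FPKM + 1)/(WT FPKM + 1)) on the vertical axis for 15 of the 16 Hox genes with a mean of at least 1 FPKM, by cluster and paralogue number, coloured by paralogue class (central 4 to 8, posterior 9 to 13). The shaded band, labelled as genes of like level, is the central 95% of the 7121 genes with a mean from 1 FPKM up to that of Hoxa10. The dashed lines mark 2-fold. Points are single values with no error; all lie between the dashed lines, Hoxa11 is highest at 0.53, and the genes from Hoxc4 to Hoxc9 lie below 0.

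The differences were not spread evenly over the clusters. The 3 genes from Hoxa9 to Hoxa11 were all higher in Tet2 KO, with log2 ratios of 0.07, 0.12 and 0.53. The 5 genes from Hoxc4 to Hoxc9 were all lower, from -0.35 for Hoxc8 to -0.20 for Hoxc9, and their summed level was 15.1 FPKM in WT and 11.9 FPKM in Tet2 KO. The next genes of the same cluster, Hoxc10 and Hoxc11, had log2 ratios of 0.11 and 0.01. The median was 0.04 over the 7 Hoxa genes and -0.22 over the 7 Hoxc genes, and by position -0.17 over the 9 central and 0.09 over the 6 posterior genes. The Hoxd genes had -0.03 for Hoxd8 and 0.14 for Hoxd4. Differences of the size seen from Hoxc4 to Hoxc9 were common at like levels, and that of Hoxa11 was less so, as given below. Of the 2161 genes within 2-fold of the mean level of Hoxc8, 10.5% were as far down or farther, and for Hoxc4, Hoxc5, Hoxc6 and Hoxc9 the same share was 10.4% to 18.7%. The runs of genes in 1 direction were noticed in the values, neighbours share a chromosome region, and without values per library they were not tested.

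Hoxa11, with the highest ratio, shared its locus entry with an antisense gene of a similar ratio. Hoxa11os, the antisense RNA of Hoxa11, had 8.24 FPKM in WT and 12.7 FPKM in Tet2 KO, a log2 ratio of 0.57 beside the 0.53 of Hoxa11. The annotated exons of the 2 genes, on opposite strands, overlapped by 1038 bases, which were 38.6% of the exon bases of Hoxa11. Among the 4379 genes within 2-fold of the mean level of Hoxa11, 2.99% were as far up or farther. The library kit does not mark the strand, so reads of Hoxa11 and of its antisense partner in the shared exons cannot be told apart.

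Of the 19 other rows inside the clusters, 4 reached 1 FPKM, and all 4 lay in the Hoxa cluster. Besides Hoxa11os these were Hotairm1, a noncoding RNA of the anterior end, with 7.22 FPKM in WT and 4.34 FPKM in Tet2 KO (a log2 ratio of -0.62), Mira, a noncoding RNA whose locus lies between those of Hoxa6 and Hoxa7, with 8.23 FPKM in WT and 7.60 FPKM in Tet2 KO, and Hoxaas3, with 1.13 and 1.42 FPKM. Hotair, the noncoding RNA between Hoxc11 and Hoxc12 known for binding Polycomb proteins, stayed just under, with 0.910 FPKM in WT and 0.918 FPKM in Tet2 KO. Hottip, which lies beyond Hoxa13 and is known for keeping posterior Hoxa genes active, was at 0.0201 and 0.0265 FPKM. Levels of the genes outside the clusters varied. Evx1 and Evx2, homeobox genes beyond Hoxa13 and Hoxd13, were at or under 0.0180 FPKM, while Mtx2, a mitochondrial gene beside Hoxd1, had 83.4 FPKM in WT and 76.8 FPKM in Tet2 KO. Skap2 on the anterior side of the Hoxa cluster had 16.5 and 21.2 FPKM, Lnpk beyond Evx2 had 9.38 and 9.17 FPKM, Smug1 on the side of Hoxc4 had 15.2 and 12.6 FPKM, and Calcoco1 on the side of Hoxc13 had 28.9 and 22.3 FPKM. The rows nearest to the Hoxb cluster on both sides, such as Skap1, were at or under 0.103 FPKM, like the cluster itself. None of the neighbours with at least 1 FPKM was past 2-fold.

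The clusters also hold genes of microRNAs, shown here because paralogous clusters carry nearly the same ones. Mature sequences are from RefSeq, 5′ to 3′, with the seed (bases 2 to 8) in capitals. The miR-10 genes lie at chr11:96317186-96317208 (miR-10a-5p, Hoxb cluster, plus strand) and chr2:74726074-74726096 (miR-10b-5p, Hoxd cluster, plus strand) of GRCm38.p6. The miR-196a-5p sequence is encoded in the Hoxb cluster at chr11:96265187-96265208 and in the Hoxc cluster at chr15:102973365-102973386, both on the plus strand, and that of miR-196b-5p in the Hoxa cluster at chr6:52230129-52230150 on the minus strand.
miR-10a-5p: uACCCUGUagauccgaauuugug
miR-10b-5p: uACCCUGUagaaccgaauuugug
miR-196a-5p: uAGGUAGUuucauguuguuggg
miR-196b-5p: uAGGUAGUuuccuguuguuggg
The first pair shares 1 seed and the second pair another. The 6 rows of such genes inside the clusters were listed at 0 in both groups, as were 1139 of the 1147 microRNA rows of the table, since a library of long RNA does not capture mature microRNAs, and nothing about their levels follows. The letters ACTACCT, complementary to the miR-196 seed, occurred on the transcript strand in the longest annotated 3′ UTR of 9 of the 39 Hox genes, against 5.72% of 19915 genes, and ACAGGGT, complementary to the miR-10 seed, in that of 2 Hox genes, against 11.2%. The median length of these UTRs was 1117 bases for the Hox genes and 893 bases for all. Among those with the miR-196 letters were Hoxa4, Hoxa5, Hoxa7, Hoxa9, Hoxb1, Hoxb6, Hoxb7 and Hoxc8, from near 0 to 14.7 FPKM. The longest pairing was that of miR-196a-5p with Hoxb8, the Hox target it is known to cleave, where all 22 bases paired, 21 of them as Watson-Crick pairs and 1 as a G-U pair. It lies on the plus strand at chr11:96146202-96146223 of NCBIM37, and the capitals mark the stretch opposite the seed.
Hoxb8 site: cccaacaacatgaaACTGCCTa
Hoxb8 itself had 0.0143 FPKM in WT and was listed at 0 in Tet2 KO.

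The partners and regulators of Hox genes were compared in the same way. Of the 9 cofactor genes of the Pbx, Meis and Pknox families, 8 had a mean of at least 1 FPKM, none was past 2-fold, and the median log2 ratio was 0.09. The highest was Pbx2, with 19.1 FPKM in WT and 16.6 FPKM in Tet2 KO. Of 30 Polycomb genes, 28 were compared, none was past 2-fold, and the median was -0.05. In Tet2 KO 8 were higher and 20 lower, beside 48.8% of all 11692 genes higher. The highest level was that of Rbbp7, a histone-binding subunit, with 252 and 244 FPKM. Of 12 Trithorax genes none was past 2-fold, with a median of -0.01, the highest being Psip1 with 95.7 and 95.8 FPKM. Among 19 genes of retinoic acid, which sets Hox expression in the embryo, and of axial patterning, 9 were compared and none was past 2-fold at the pseudocount of 1, with a median of -0.03. That count rested on the pseudocount. With none, 2 were past 2-fold higher, Crabp1 (3.01 FPKM in WT and 6.56 FPKM in Tet2 KO) and Aldh1a2 (0.855 and 2.43 FPKM). Rxrg (3.73 and 1.78 FPKM) was the 1 past 2-fold lower. Aldh1a2 passed the filter only through its Tet2 KO value. Of all 11692 genes, 4.97% were past 1.5-fold higher and 4.02% lower with no pseudocount, so the shares past 2-fold were no larger. Crabp1 binds retinoic acid in the cell, Aldh1a2 makes it and Rxrg is a retinoid receptor. The highest of these was Rxrb, with 20.6 FPKM in WT and 21.5 FPKM in Tet2 KO. Cdx1, Cdx2 and Cdx4, which switch on posterior Hox genes in the embryo, were at or under 0.0175 FPKM. Of 23 limb patterning genes, 9 were compared and none was past 2-fold, with a median of -0.15. The highest was Prrx1, with 47.4 and 42.6 FPKM. Tbx4, the T-box gene of the hindlimb, had 2.29 FPKM in WT and 1.86 FPKM in Tet2 KO, and Tbx5, that of the forelimb, had 0.0187 and 0.00475 FPKM. Pitx1, which acts before Tbx4 in the hindlimb, had 0.188 and 0.317 FPKM.

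**Figure D4:**
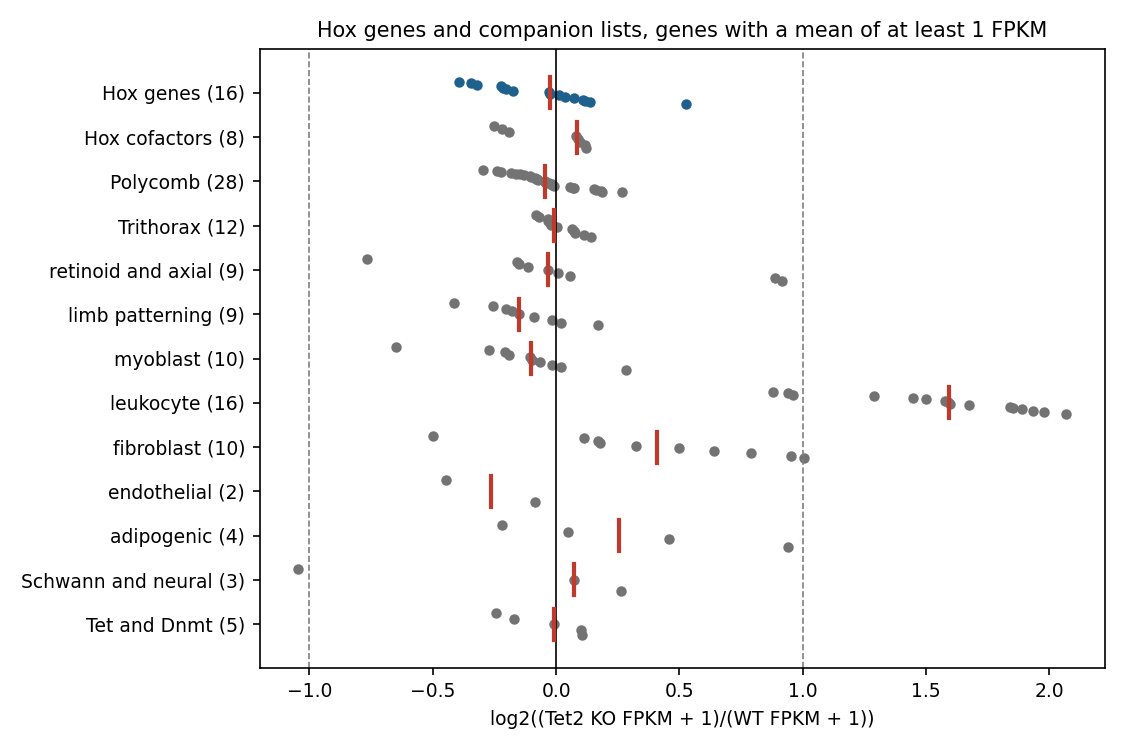
log2((Tet2 KO FPKM + 1)/(WT FPKM + 1)) on the horizontal axis for each gene with a mean of at least 1 FPKM, for the Hox genes and each companion list (the number of genes in brackets); red marks are medians and dashed lines mark 2-fold. The Hox, cofactor, Polycomb and Trithorax genes stay between the dashed lines, and the leukocyte list has a median of 1.59.

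The labelled cell type and other cell types were checked by marker lists. Myod1, the factor that defines myoblasts, had 336 FPKM in WT and 313 FPKM in Tet2 KO, and the highest of the 10 myoblast markers, Des, had 449 and 372 FPKM. The median of that list was -0.10, with 0 past 2-fold. Leukocyte markers differed between the groups, and 1 pooled value per group cannot show whether both cultures of a group shared the difference. All 16 compared of the 20 in the table were higher in Tet2 KO, beside 48.8% of all 11692 genes. Past 2-fold higher were 13 of them, beside 2.08% of all, and the median of the list was 1.59. Their summed level was 135 FPKM in WT and 529 FPKM in Tet2 KO, led by Lyz2, a macrophage lysozyme, with 59.5 and 253 FPKM. The 13 were Lyz2, Coro1a, Ctss, Cd52, Tyrobp, Itgam, Itgb2, Csf1r, Spi1, Fcer1g, Ptprc, Adgre1 and Cd53. Of these, Adgre1 (0.712 FPKM in WT and 3.67 FPKM in Tet2 KO) passed the filter only through its Tet2 KO value. Ptprc and Itgam encode CD45 and CD11b, the surface proteins that cells had to lack in the sort. Ptprc had 1.36 FPKM in WT and 5.67 FPKM in Tet2 KO. The lymphocyte genes Cd3e and Cd79a were at or under 0.175 FPKM in both groups, and Cd3e was listed at 0 in Tet2 KO. Hoxa9, which blood progenitors also express, and Hoxb4 stood at the levels given above. Of 10 fibroblast genes compared, 9 were higher and 1 was past 2-fold, Mfap5 at 1.00, with a list median of 0.41 and sums of 198 and 233 FPKM, led by Col3a1. The Schwann and neural list had sums of 37.3 FPKM in WT and 26.8 FPKM in Tet2 KO, and Erbb3, also its highest gene, was past 2-fold lower, at -1.05. The endothelial list, led by Eng, had sums of 8.17 and 6.47 FPKM and the adipogenic list, led by Ly6a, sums of 294 and 311 FPKM, with 0 past 2-fold in either at the pseudocount of 1, and their medians were -0.27 over 2 genes and 0.25 over 4. Without a pseudocount 1 gene of the adipogenic list was past 2-fold higher, Cd34 (3.03 FPKM in WT and 6.74 FPKM in Tet2 KO), whose protein the cells had to carry in the sort. Of all 11692 genes, at most 4.97%, the share past 1.5-fold, were past 2-fold higher in this way. Ly6a encodes Sca1, the marker absent at the sort, and had 278 FPKM in WT and 288 FPKM in Tet2 KO. The part of these cells in the Hox values was not tested. Tet2 had 6.64 FPKM in WT and 5.79 FPKM in Tet2 KO over all its exons, so the deleted exon was not measured on its own. Tet1 had 0.484 and 0.364 FPKM and Tet3 had 3.39 and 3.70 FPKM, and the 5 genes compared of the Tet and Dnmt list, led by Dnmt1, had a median of -0.01 with 0 past 2-fold.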

How the data were processed

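RNA of 2 WT and 2 Tet2 KO cultures of primary myoblasts was sequenced from TruSeq RNA v2 libraries. Per the study's methods and the submitters' processing notes, the authors trimmed and filtered paired reads, aligned them to mm9 with TopHat2 2.0.13 and estimated FPKM with Cuffdiff 2.2.1. The gene annotation was not given in the sources used here. The deposited table held 1 FPKM value per gene and group, read here as pooling the 2 libraries of a group. Its columns of the authors' own comparison (fold change, test statistic, p, q, status and significance) were not used. Depth per library was unknown, so no interval was given. No statistical test was run, since each group had 1 value.

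Members were the rows whose symbol is Hox, a cluster letter and a number. Members and lists were chosen with earlier results of these data known. Log2 ratios used a pseudocount of 1, counts used genes with a mean of at least 1 FPKM, and 2-fold was the threshold. Results of 1 Hox gene and 1 leukocyte marker are not reported here by name, and both count in sums and medians over their lists. Named were all other Hox genes at 1 FPKM in either group, the highest gene of each list and those past 2-fold, noncoding and flanking genes at 1 FPKM, and the Tet genes. Genes named beyond this were chosen after their values were seen. All value columns belonged to the 4 libraries. Starts are counted from 1. Exons and 3′ UTR sequences came from GENCODE vM1 (mm9, also called NCBIM37), promoter and microRNA sequences from RefSeq (GRCm38.p6). Fold counts were checked on simulated data without noise, which tests the counting only and not the ability to find differences at low levels. Python 3.11.15, numpy 2.4.6, pandas 2.3.3 and matplotlib 3.10.9 were used.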

Additional observations from a re-analysis of the deposited data

How the results depend on the processing

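No paired analysis was possible because the table holds 1 pooled value per group, and for the same reason no library could be left out. A median or share counted as moved when it changed by 0.1 on the log2 scale or by more than 1.5 times.

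No Hox gene with a mean of at least 1 FPKM was past the fold threshold under any of these changes made 1 at a time (a fold of 1.5, a pseudocount of 0.1, no pseudocount, means of at least 5 FPKM, TPM and median centring), and none at a pseudocount of 1 without a filter. Dropping the filter and the pseudocount together put Hoxb1, Hoxb3, Hoxb5 and Hoxb6 past 2-fold lower, all under 0.1 FPKM. The share of all genes past 2-fold at this setting was not counted, so no result about Hoxb follows. At a pseudocount of 1, 12.6% to 45.4% of the genes within 2-fold of their mean levels were as far down or farther. A fold of 1.5 together with no pseudocount, chosen after seeing the data, gave 0 higher and 1 lower. Counts of the companion lists depended more on the pseudocount: with 0.1 or none, the retinoid and axial list went from 0 to 2 higher and 1 lower, the adipogenic list from 0 to 1 higher and the fibroblast list from 1 to 2 higher.

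Medians close to 0 changed sign easily. The median of all Hox genes turned from -0.03 to 0.0735 over the 7 genes with a mean of at least 5 FPKM and to 0.0350 without the Hoxc cluster, and moved to -0.20 without the Hoxa cluster. The Hoxa median turned from 0.04 to -0.0227 with no filter and to -0.0594 with TPM, which also raised the number of genes passing. The Hoxd median turned from 0.05 to -0.0297 at a mean of at least 5 FPKM and also without genes that share a locus entry (an alternative chosen after seeing the data), and to -0.0162 with TPM. The Hoxc median of -0.22 moved to -0.33 at a pseudocount of 0.1 and -0.35 with none, and turned to 0.0105 at a mean of at least 5 FPKM. The posterior median turned from 0.09 to -0.0042 with no filter. The central median of -0.17 moved to -0.0297 with no filter and at a mean of at least 5 FPKM. Of the companion lists, the Trithorax median turned to 0.0020 and the Schwann and neural median to -0.39 at a mean of at least 5 FPKM.

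The 16 genes at 1 FPKM became 20 at 0.5 FPKM, 20 at 1 TPM and 7 at 5 FPKM. Summing log2(FPKM + 1) moved the Hoxb share to 2.61% in Tet2 KO and 2.87% in WT, the anterior share to 6.71% and 8.02%, and the central share in Tet2 KO to 38.9%; the order of clusters and classes stayed. Depth was unknown, which limits the genes under 1 FPKM most.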
